A study of Mus musculus with 33 samples.

Results

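The spleen clears old red cells and blood-borne particles with several kinds of resident macrophage, and 9 genes commonly used to recognise them are described here across a culture experiment with CpG DNA. The genes were chosen by symbol: Adgre1, Marco, Spic, Cd68, Cd163, Fcgr1, Fcgr3, Hmox1 and Vcam1, 9 of the 9672 named genes with values. Each was read by 1 probe of the array, named through the platform's gene annotation. All 9 were measured on all 33 arrays except Marco, which had values on 31.

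Whole spleen cell suspensions from female BALB/c mice, 2 months old, were cultured for 2, 4 or 8 h in serum-supplemented RPMI medium under 1 of 3 conditions. The CpG ODN cultures received an equimolar mix of ODN 1555 and 1466 at 1 uM, synthetic DNAs whose CpG motifs are sensed by Toll-like receptor 9. The control ODN cultures received ODN 1612 and 1471 at 1 uM, which lack those motifs and control for effects of any ODN, and the third set was kept in medium alone to control for handling and culture. Each group comprised 4 arrays at 2 h, 4 arrays at 4 h and 3 arrays at 8 h. No group was uncultured, so a change between 2 h and 8 h in medium is a change within culture. The cells were not sorted, and no purified macrophages were among the samples. The arrays of a group are numbered repeats, which the series text describes as coming from 3 to 4 independent experiments.

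Each value is the log2 ratio of Cy5-labelled spleen cell RNA to a Cy3-labelled pool of mouse RNAs, centred on the array's median. The pool contained macrophage RNA among that of several tissues. A value of 1 therefore means that the RNA was at double its level in the pool, and values of different genes do not say which gene was more abundant. A difference between groups is given as a log2 difference ± the standard error (SE) of the limma model, with its p-value adjusted over all genes tested, and a gene is called changed at an adjusted p under 0.05. Whole cultures were measured, so fewer cells of a type and less RNA per cell cannot be told apart in any of these values.

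Red pulp macrophages engulf spent erythrocytes, break down their haem and return the iron to the blood. The transcription factor encoded by Spic is needed for their formation and also turns on Vcam1, and haem itself induces Spic. Marginal zone macrophages take up bacteria and particles from the blood, for which they use the scavenger receptor MARCO, and activated macrophages alter the set of Fc receptors through which they bind antibody-coated targets.

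Promoter sequence of the members lets these changes be read beside the DNA next to the start site. RefSeq's promoter table, on GRCm38.p6, held 6 of the 9 genes: Marco, Spic, Cd68, Cd163, Fcgr1 and Fcgr3. The 250 bases before the start site are shown for Fcgr1, which was higher with CpG ODN than in both controls at 8 h. They are also shown for Cd68, which fell in CpG ODN cultures from 2 h to 8 h. The windows of Spic, Fcgr3 and Cd163, which also had called differences, are not shown. Capitals mark matches to the motifs searched, and both genes shown lie on the minus strand.
Fcgr1, chr3:96293970-96294219: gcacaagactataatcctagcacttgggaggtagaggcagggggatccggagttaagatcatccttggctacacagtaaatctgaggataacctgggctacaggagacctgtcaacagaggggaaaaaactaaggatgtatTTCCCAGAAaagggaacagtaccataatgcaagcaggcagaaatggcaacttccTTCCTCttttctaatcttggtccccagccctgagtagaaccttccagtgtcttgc
Cd68, chr11:69666171-69666420: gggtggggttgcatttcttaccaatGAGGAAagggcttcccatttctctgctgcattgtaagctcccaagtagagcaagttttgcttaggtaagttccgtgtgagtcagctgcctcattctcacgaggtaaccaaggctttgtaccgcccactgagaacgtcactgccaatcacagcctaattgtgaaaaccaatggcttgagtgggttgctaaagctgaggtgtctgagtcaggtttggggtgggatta
In Fcgr1 the first capitals are a GAS match (TTCNNNGAA, the interferon gamma-activated site), from -109 to -101 counted from the start site. The second are the PU.1 core (GAGGAA, here on the other strand), from -55 to -50. In Cd68 the capitals are a PU.1 core on the gene's own strand, from -225 to -220. PU.1, encoded by Spi1, is the factor that sets the myeloid lineage.

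Motifs were searched on both strands, and a match describes these letters only. GAS was in 7.0% of the 32851 RefSeq windows of the same length and, of the 6 members, in Fcgr1 alone. An NF-kB form (GGNNTTTCC) was in 4.9% of windows and in Fcgr3 and Marco. The PU.1 core was in 23.3% of windows and in 4 of the 6 members, namely Cd68, Fcgr1, Fcgr3 and Marco. An interferon-stimulated response element core (GAAANNGAA, 7.1% of windows) and an antioxidant element (TGACNNNGC, 10.2%) were in 0 of the 6. Cd163 and Spic held none of these 5 motifs. The Fcgr3 window belongs to a start site inside the gene's annotated span.

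For 6 of these RNAs the median spleen cell level was above that of the reference pool. Spic, Fcgr3, Cd163, Marco, Hmox1 and Adgre1 had median log2 ratios over all arrays of 2.66, 2.74, 1.45, 1.40, 0.84 and 0.20, while Cd68, Fcgr1 and Vcam1 had medians of -0.47, -1.21 and -0.37. Spic, Fcgr3, Cd163 and Marco were above 0 on every array that measured them. Vcam1 had the widest range of the 9, from -2.72 to 1.58. Of 20 other monocyte and macrophage genes with values, 14 had a mean above 0, from -2.36 for Axl to 3.60 for Cybb. The label of splenic macrophage genes rests on the symbols, since spleens hold other cells that express several of them.

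**Figure D1:**
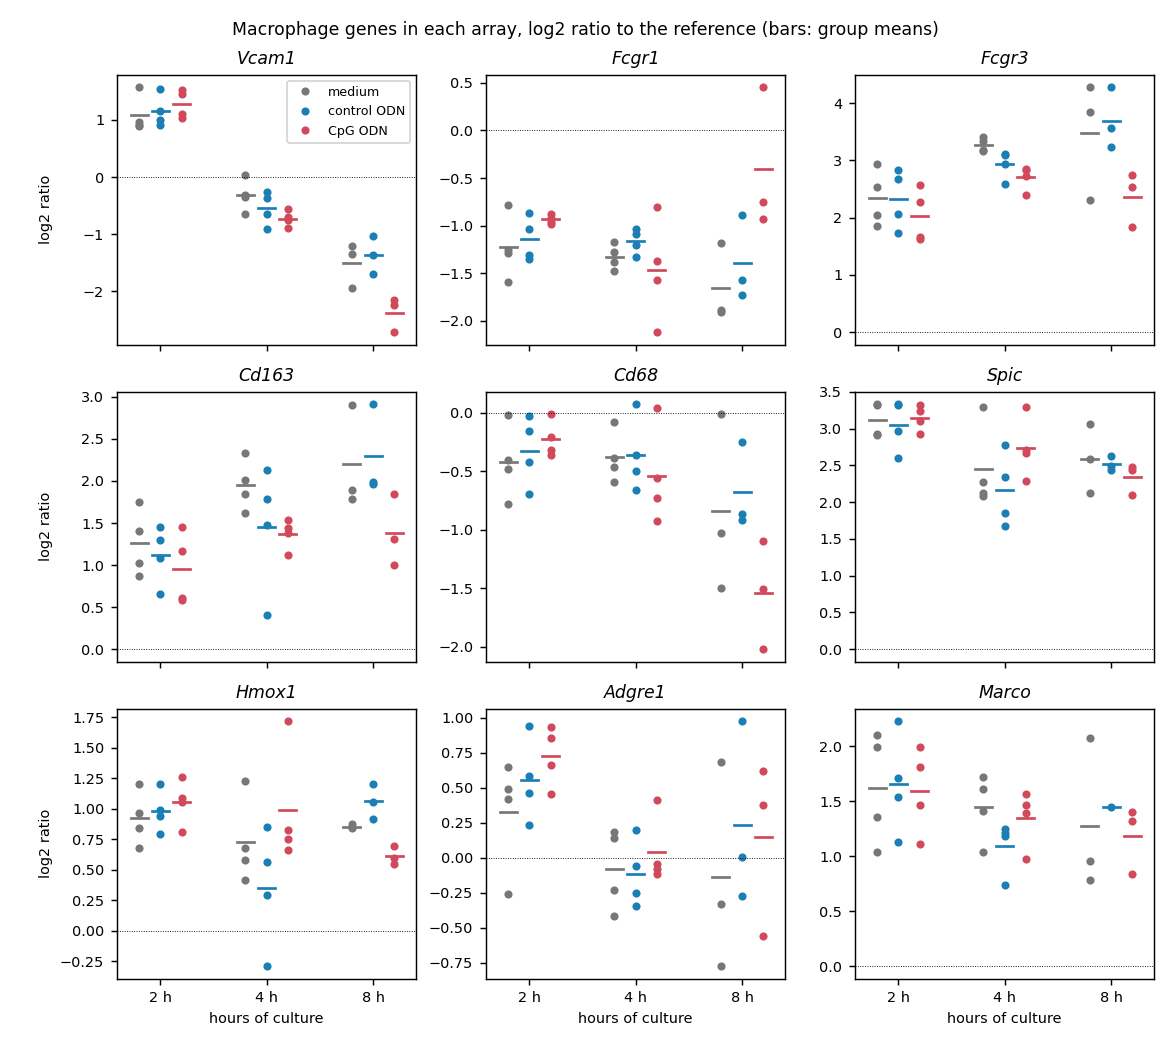
Log2 ratio of spleen cell RNA to reference RNA for each of the 9 genes (vertical axes, each gene on its own scale) by hours of culture, with 1 point per array and a bar at each group mean for medium (grey), control ODN (blue) and CpG ODN (red). Vcam1 falls at each step in all 3 conditions, to between -2.72 and -2.16 with CpG ODN at 8 h, and Fcgr3 rises to as much as 4.29 in medium and control ODN but not above 2.74 with CpG ODN at 8 h.

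In the comparison of CpG ODN with both controls, the macrophage genes showed called differences at 8 h and not at 2 h or 4 h. At 2 h, limma called 0 of 9 members against control ODN, where it called 0.0430% of all genes, and 0 of 9 against medium, with 0.0420% of all genes. None of the 9 was under an unadjusted p of 0.05 in either comparison. After 4 h it called 0 of 9 against control ODN (0.384% of all genes) and 0 of 9 against medium (0.218%). At 4 h, 2 members had an unadjusted p under 0.05, against control ODN, Hmox1 with 0.64 ± 0.22 (adjusted p = 0.708) and Spic with 0.58 ± 0.26 (adjusted p = 1.00), and against medium 0 did. Hmox1 was 0.39 without CpG ODN repeat 4 and 0.42 without control ODN repeat 2.

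At 8 h, 3 of the 8 members tested against control ODN were called, beside 10.0% of all genes. Fcgr1 was higher, Fcgr3 and Vcam1 were lower, and the median of the 8 differences was -0.66, against -0.12 over all genes. Against medium 2 of 9 were called, Fcgr1 higher and Vcam1 lower, beside 11.8% of all genes, with a median of -0.25 against -0.13. The medians over all genes were thus slightly below 0 with CpG ODN at 8 h, after each array's median over probes had been set to 0. Of all genes, 432 were called higher and 517 lower against control ODN, and 536 higher and 579 lower against medium. Of the 8 members, 7 were below 0 against control ODN, and 7 of 9 were below 0 against medium. In both comparisons more of all genes tested also lay below 0 than above it, since their medians were below 0. The exact share was not counted. These comparisons share the CpG ODN arrays. Marco could not be tested against control ODN at 8 h, because only 1 array of that group measured it.

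**Figure D2:**
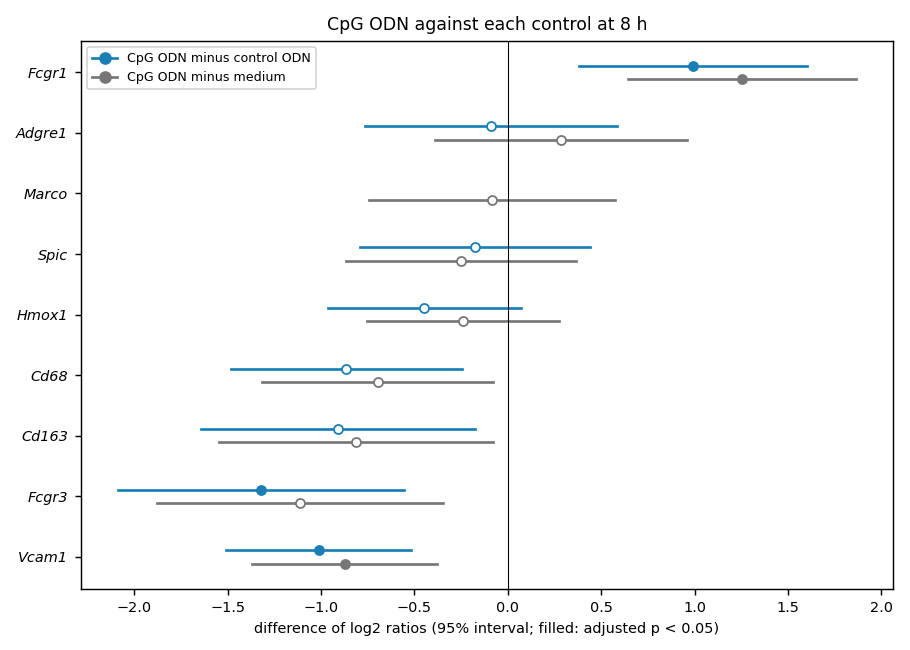
Difference in log2 ratio between CpG ODN and control ODN (blue) or medium (grey) at 8 h for each gene, with its 95% confidence interval from limma; filled points have an adjusted p under 0.05. Fcgr1 lies right of 0 in both comparisons, Vcam1 lies left of 0 in both, and Fcgr3 is filled against control ODN only (-1.32) and not against medium (-1.11).

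The control ODN itself gave no called difference from medium. limma called 0 of 9 members at 2 h, 0 of 9 at 4 h and 0 of 8 at 8 h, and 0% of all genes at 2 h, 0% at 4 h and 0% at 8 h. Also at an unadjusted p under 0.05 there were 0 members at each time, against 229, 176 and 379 of all genes. The widest of the members' 95% intervals at 8 h, that of Fcgr3, ran from -0.56 to 0.98.

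Without any ODN, Vcam1 fell and Fcgr3 rose as culture went on. In medium, 1 of 9 members was called between 2 h and 4 h (Vcam1, lower, beside 1.58% of all genes) and 1 of 9 between 4 h and 8 h (Vcam1, lower, beside 0.731%). Between 2 h and 8 h in medium 2 of 9 were called, Fcgr3 higher and Vcam1 lower, beside 14.6% of all genes. With control ODN over the same span 3 of 8 were called, Cd163 and Fcgr3 higher and Vcam1 lower, beside 10.1%. With CpG ODN 3 of 9 were called, Vcam1, Cd68 and Spic, all lower, beside 16.6%. The difference between these changes was tested directly: CpG ODN changed 1 of 9 members differently from medium (Vcam1, beside 5.89% of all genes) and 1 of 8 differently from control ODN (Vcam1, beside 3.26%). For no other member was the change over time shown to differ between treatments.

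**Figure D3:**
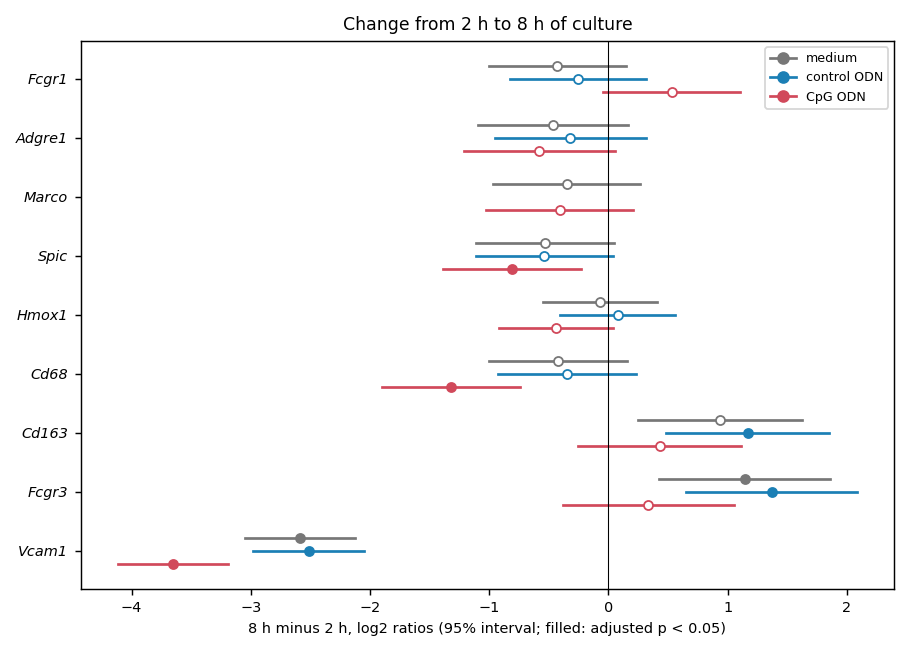
Change in log2 ratio from 2 h to 8 h of culture for each gene in medium (grey), control ODN (blue) and CpG ODN (red), with 95% confidence intervals from limma; filled points have an adjusted p under 0.05. Vcam1 lies at -2.59 in medium, -2.51 with control ODN and -3.65 with CpG ODN, and Cd163 and Fcgr3 are right of 0 in all 3.

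Vcam1 encodes an adhesion molecule that binds the integrin VLA-4 on leukocytes and red cell precursors, and it is carried by red pulp macrophages as well as by endothelial and stromal cells. In medium its log2 ratios were 0.97, 1.58, 0.89 and 0.91 at 2 h, then 0.03, -0.35, -0.32 and -0.64 at 4 h, then -1.21, -1.35 and -1.94 at 8 h. Control ODN cultures had 1.15, 1.54, 1.01 and 0.91 at 2 h, -0.37, -0.25, -0.64 and -0.91 at 4 h, and -1.03, -1.36 and -1.69 at 8 h. In CpG ODN cultures the values were 1.11, 1.45, 1.52 and 1.04 at 2 h, -0.56, -0.76, -0.69 and -0.89 at 4 h, and -2.16, -2.25 and -2.72 at 8 h. Within each condition the 3 times did not overlap, and at 8 h every CpG ODN array was below every array of both controls.

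The decline of Vcam1 in medium was -1.40 ± 0.21 from 2 h to 4 h (adjusted p = 0.000411) and -1.18 ± 0.23 from 4 h to 8 h (adjusted p = 0.0167). The later step lost its call without medium repeat 3 at 4 h (-1.18, adjusted p = 0.0771) or repeat 3 at 8 h (-0.96, adjusted p = 0.131). Over the whole span Vcam1 fell by 2.59 ± 0.23, which is 6.01-fold (adjusted p = 5.16e-09), in medium. It fell by 2.51 ± 0.23, or 5.71-fold (adjusted p = 2e-08), with control ODN. With CpG ODN it fell by 3.65 ± 0.23, or 12.6-fold (adjusted p = 4.11e-13). These 3 falls kept their call when any 1 array was left out.

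The added decline of Vcam1 with CpG ODN was called at 8 h and not at 2 h or 4 h. Against control ODN the difference was 0.13 ± 0.21 at 2 h (adjusted p = 1.00), -0.18 ± 0.21 at 4 h (adjusted p = 1.00) and -1.01 ± 0.24 at 8 h (adjusted p = 0.00567). The 8 h difference kept its call when any 1 of its arrays was left out, and under quantile normalization it was -0.75 (adjusted p = 0.0526). Against medium at 8 h it was -0.87 ± 0.24 (adjusted p = 0.0156), with the call lost without medium repeat 1 (-0.73, adjusted p = 0.0612), medium repeat 2 (-0.80, adjusted p = 0.0691) or CpG ODN repeat 3 (-0.70, adjusted p = 0.0986). That call was also lost with quantile normalization (-0.68, adjusted p = 0.0747), with array weights (-0.62, adjusted p = 0.0525) and with the compared groups alone (adjusted p = 0.14). As a change over time, the fall with CpG ODN exceeded that in medium by 1.07 ± 0.32 on the log2 scale (adjusted p = 0.0433) and that with control ODN by 1.14 ± 0.32 (adjusted p = 0.0425). Leaving out 1 array at a time, the adjusted p ran from 0.0165 to 0.134 against medium and from 0.0206 to 0.145 against control ODN, and 5 of 14 of these fits called it in each case. In both cases the largest adjusted p was without CpG ODN repeat 3 at 8 h, where the difference was -0.90 against medium and -0.97 against control ODN.

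Other adhesion molecules of the VCAM1 type were tested from a list of 15 genes, of which 13 had values. Counts of this and the later lists stand beside the share called over all genes. It was 10.0% for CpG ODN against control ODN at 8 h (median -0.12) and 11.8% against medium (median -0.13). From 2 h to 8 h it was 14.6% in medium (median 0.03), 10.1% with control ODN (median -0.01) and 16.6% with CpG ODN (median -0.05). No list was tested as a set. With CpG ODN at 8 h, 0 of 13 were higher and 2 lower than with control ODN, both chains of the leukocyte integrin LFA-1: Itgb2 with -0.87 ± 0.19 (adjusted p = 0.00305) and Itgal with -0.80 ± 0.22 (adjusted p = 0.0143). Against medium neither chain was called (Itgb2 -0.57 ± 0.19, adjusted p = 0.0523, and Itgal -0.46 ± 0.22, adjusted p = 0.178). There 1 of 13 was higher, Cd44 with 0.93 ± 0.24 (adjusted p = 0.00886), and 1 was lower, Itgb7 with -1.08 ± 0.33 (adjusted p = 0.0297). In medium from 2 h to 8 h, 1 of 13 was higher and 2 were lower. Cd44, the hyaluronan receptor, fell by 1.31 ± 0.22 (adjusted p = 0.000168), while Itgal rose by 1.02 ± 0.20 (adjusted p = 0.000891). The other lower gene was Itgb2, with -0.77 ± 0.18 (adjusted p = 0.00444). Itga4, a chain of the VCAM1 receptor, was -0.56 ± 0.26 with CpG ODN against control ODN at 8 h (adjusted p = 0.19). The list's medians were -0.27 for CpG ODN against control ODN and 0.05 for medium over time.

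Cells other than macrophages can carry Vcam1, so their markers are given beside it. Of 9 endothelial markers, 2 were called from 2 h to 8 h in medium, Tek and Cdh5, both higher. Tek was 1.48 ± 0.24 (adjusted p = 9.68e-05) and Cdh5 1.72 ± 0.34 (adjusted p = 0.000913), while Eng, the other endothelial marker on all arrays beside Tek, was -0.05 ± 0.22 (adjusted p = 0.917). With CpG ODN over time Tek and Cdh5 were again higher and 1 of 9, Flt1, was lower, by -0.92 ± 0.21 (adjusted p = 0.00303). Flt1 was also lower with CpG ODN than in medium at 8 h, by -0.71 ± 0.23 (adjusted p = 0.0409), the only one of the 9 called in that comparison, and 0 of 9 were called against control ODN. The mean log2 ratio of Tek and Eng was -0.20 ± 0.27 (SD, n = 4) at 2 h and 0.51 ± 0.14 (SD, n = 3) at 8 h in medium, and -0.11 ± 0.18 (SD, n = 4) and 0.23 ± 0.13 (SD, n = 3) with CpG ODN. Of 11 stromal markers, 1 had a mean above 0 and the median was -2.17, and 1 was called in medium over time (Cxcl12, higher). With CpG ODN over time 3 stromal markers were lower, Pdgfra, Vim and Sparc, and 1 was higher. With control ODN over time 1 was higher and 1 lower, Pdgfra with -1.72 ± 0.44 (adjusted p = 0.00979). With CpG ODN at 8 h, 1 of 11 was higher and 0 were lower against each control. This was Dcn, with 1.27 ± 0.28 against control ODN (adjusted p = 0.0034) and 0.89 ± 0.28 against medium (adjusted p = 0.0389). The mean of 7 stromal markers with CpG ODN was -1.80 ± 0.18 (SD, n = 4) at 2 h and -2.54 ± 0.12 (SD, n = 3) at 8 h, and in medium it was -2.11 ± 0.16 and -2.05 ± 0.63. The part of endothelial and stromal cells in the CpG ODN decline was not tested.

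Fcgr1 encodes the high-affinity IgG receptor CD64, which interferon gamma induces in macrophages. Its 8 h values in medium were -1.18, -1.91 and -1.88, with control ODN -0.89, -1.57 and -1.73, and with CpG ODN 0.46, -0.75 and -0.93. Every CpG ODN array was above every medium array, and 2 of the 3 CpG ODN arrays were above all control ODN arrays. At 2 h the 12 arrays lay between -1.59 and -0.79, and at 4 h between -2.12 and -0.80, with the CpG ODN values -1.57, -0.80, -1.38 and -2.12 spread over the widest range.

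With CpG ODN at 8 h, Fcgr1 was 0.99 ± 0.30 above control ODN, or 1.99-fold (adjusted p = 0.0306). The call was lost without CpG ODN repeat 1 (0.56, adjusted p = 0.274), control ODN repeat 2 (0.91, adjusted p = 0.109) or control ODN repeat 3 (0.83, adjusted p = 0.139). Over medium the rise was 1.25 ± 0.30, or 2.38-fold (adjusted p = 0.00477), which without CpG ODN repeat 1 was 0.82 (adjusted p = 0.0687). With the compared groups alone neither difference was called (adjusted p = 0.164 against control ODN and 0.129 against medium). The CpG ODN arrays at 8 h had an SD of 0.75, above the residual SD of 0.37 over all groups. Within CpG ODN cultures the difference between 8 h and 2 h was 0.53 ± 0.28 (adjusted p = 0.208), while in medium it was -0.43 ± 0.28 (adjusted p = 0.346). The difference between those changes, 0.96 ± 0.40, was not called (adjusted p = 0.16).

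Fcgr3 encodes the low-affinity IgG receptor CD16, which signals in macrophages, neutrophils and NK cells. In medium its log2 ratios were 2.53, 2.94, 1.85 and 2.04 at 2 h, 3.16, 3.41, 3.34 and 3.18 at 4 h, and 2.32, 3.85 and 4.29 at 8 h. Control ODN cultures had 1.73, 2.83, 2.67 and 2.06 at 2 h, 3.11, 2.60, 2.94 and 3.10 at 4 h, and 3.23, 3.56 and 4.29 at 8 h. For CpG ODN they were 1.64, 2.56, 2.27 and 1.67 at 2 h, 2.85, 2.40, 2.83 and 2.73 at 4 h, and 2.53, 1.84 and 2.74 at 8 h. All 3 CpG ODN arrays at 8 h were below all control ODN arrays, and the medium group overlapped them through repeat 1.

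From 2 h to 8 h Fcgr3 rose by 1.14 ± 0.35 in medium (adjusted p = 0.0267) and by 1.37 ± 0.35 with control ODN (adjusted p = 0.00983). The difference in CpG ODN cultures was 0.33 ± 0.35 (adjusted p = 0.577). In medium the call was lost without repeat 3 at 2 h (0.98, adjusted p = 0.0862), repeat 4 at 2 h (1.04, adjusted p = 0.073), repeat 2 at 8 h (0.96, adjusted p = 0.129) or repeat 3 at 8 h (0.74, adjusted p = 0.239). Without medium repeat 1 at 8 h the rise was 1.73. With control ODN it was lost without repeat 3 at 8 h (1.07, adjusted p = 0.108).

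Set against control ODN at 8 h, Fcgr3 with CpG ODN was -1.32 ± 0.38, or 2.50-fold lower (adjusted p = 0.0209). It was not called without control ODN repeat 3 (-1.03, adjusted p = 0.133) or CpG ODN repeat 2 (-1.06, adjusted p = 0.138). Against medium the difference was -1.11 ± 0.38 (adjusted p = 0.0503). Leaving out 1 array moved it both ways. It was called without medium repeat 1 (-1.70, adjusted p = 0.00109) or CpG ODN repeat 3 (-1.30, adjusted p = 0.0491), and it shrank to -0.71 (adjusted p = 0.309) without medium repeat 3. A fit with a block per repeat number also called the difference from medium. The change over time differed from that with control ODN by -1.04 ± 0.50 (adjusted p = 0.336) and from that in medium by -0.81 ± 0.50 (adjusted p = 0.389), neither of them called. The probe's sequence is not used here, and whether it also reads the related receptor genes was not tested.

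The other Fc receptors and their signalling chain were taken from a list of 14 genes, 10 of them with values. Against control ODN at 8 h, 1 of 9 tested was higher with CpG ODN and 2 were lower, with a list median of -0.58. Over all genes 10.0% were called and the median was -0.12. Trim21, a cytosolic antibody receptor, rose by 1.68 ± 0.21 (adjusted p = 9.18e-07). Inpp5d, the phosphatase SHIP1 that dampens Fc receptor signals, fell by 1.57 ± 0.29 (adjusted p = 0.000433), and Syk, the kinase that carries those signals, fell by 0.93 ± 0.27 (adjusted p = 0.0231). Against medium only Trim21 of this list was called, at 2.01 ± 0.23 (adjusted p = 2.62e-07). Over time in medium 0 of 10 rose and 2 fell, Inpp5d by 1.49 ± 0.27 (adjusted p = 0.000403) and the neonatal Fc receptor gene Fcgrt by 1.60 ± 0.43 (adjusted p = 0.0118). With control ODN over time 1 of 10 rose, Trim21, and 1 fell, Fcer1g. With CpG ODN over time 1 of 9 rose, Trim21, and 4 fell, Inpp5d, Fcgrt, Fcer1g and Lilrb4a, with a list median of -0.68.

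Fcer1g encodes the gamma chain that both CD64 and CD16 need at the cell surface. With CpG ODN at 8 h it was 0.10 ± 0.25 against control ODN (adjusted p = 0.878) and -0.17 ± 0.25 against medium (adjusted p = 0.749). From 2 h to 8 h Fcer1g was lower with control ODN (-0.74 ± 0.23, adjusted p = 0.0406) and with CpG ODN (-0.68 ± 0.23, adjusted p = 0.044). In medium that change was -0.47 ± 0.23 and not called (adjusted p = 0.192). The inhibitory receptor gene Fcgr2b was -0.05 ± 0.36 against control ODN (adjusted p = 0.965). These 2 genes were chosen after their values had been seen, as partners of the 2 members.

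Cd163 encodes the receptor that clears haemoglobin bound to haptoglobin. At 8 h its log2 ratios were 1.79, 1.90 and 2.91 in medium, 1.99, 1.97 and 2.92 with control ODN, and 1.31, 1.00 and 1.84 with CpG ODN. The CpG ODN arrays were all below the control ODN arrays, and 1 of them was above the lowest medium array. At 2 h the values were 1.40, 1.75, 0.87 and 1.02 in medium, 0.66, 1.30, 1.45 and 1.08 with control ODN, and 0.61, 1.45, 1.16 and 0.58 with CpG ODN, overlapping throughout.

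Between 2 h and 8 h Cd163 rose by 1.17 ± 0.34 with control ODN (adjusted p = 0.0215), and the call was lost without control ODN repeat 1 at 2 h (1.01, adjusted p = 0.0716) or repeat 3 at 8 h (0.85, adjusted p = 0.201). It was also lost with quantile normalization, and without the arrays whose experiment numbers in the labels are below 75000 (adjusted p = 0.106). Those arrays include repeats 1 and 2 of control ODN at 2 h and no array of 8 h. In medium the difference was 0.94 ± 0.34 (adjusted p = 0.0583). It was called without medium repeat 2 at 2 h (1.10, adjusted p = 0.0384) or repeat 1 at 8 h (1.14, adjusted p = 0.0326), and it shrank to 0.58 (adjusted p = 0.366) without repeat 3 at 8 h. In CpG ODN cultures it was 0.43 ± 0.34 (adjusted p = 0.427). At 8 h Cd163 with CpG ODN was -0.91 ± 0.36 against control ODN (adjusted p = 0.114) and -0.81 ± 0.36 against medium (adjusted p = 0.149). Neither was called in this fit, and both were called in a fit with a block per repeat number.

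Marco, the scavenger receptor of marginal zone macrophages, lay between 0.73 and 2.23 over its 31 arrays. Its group means at 2 h were 1.62 ± 0.51 (SD, n = 4) in medium, 1.65 ± 0.45 with control ODN and 1.60 ± 0.39 with CpG ODN. At 8 h medium had 2.07, 0.96 and 0.78, CpG ODN had 1.40, 0.84 and 1.32, and the single control ODN array had 1.45. The difference between CpG ODN and medium at 8 h was -0.09 ± 0.32, with a 95% interval from -0.75 to 0.57 (adjusted p = 0.911), which leaves room for a change in either direction. Over time it was -0.35 ± 0.30 in medium (adjusted p = 0.505) and -0.41 ± 0.30 with CpG ODN (adjusted p = 0.395).

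Other scavenger receptors came from a list of 14 genes, 8 of them with values. With CpG ODN at 8 h, beside 10.0% of all genes called, 0 of 7 were higher and 1 was lower against control ODN. This was Clec7a, the beta-glucan receptor dectin-1, at -1.60 ± 0.37 against control ODN (adjusted p = 0.00436) and -1.75 ± 0.37 against medium (adjusted p = 0.00158). In medium over time 0 of 8 were called, and with CpG ODN over time 3 of 7 were lower, Clec7a, Olr1 and Scarb2, and 0 higher. With control ODN over time 2 of 8 were lower and 0 higher. These were Olr1 with -1.12 ± 0.35 (adjusted p = 0.0415) and Scarb2 with -0.59 ± 0.19 (adjusted p = 0.0441). Clec7a in CpG ODN cultures fell by 1.05 ± 0.35 (adjusted p = 0.0351), while in medium it was 0.23 ± 0.35 (adjusted p = 0.737).

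Cd68 encodes a lysosomal glycoprotein of macrophages and other phagocytes. Its CpG ODN values were -0.32, -0.01, -0.21 and -0.36 at 2 h and -1.10, -1.51 and -2.02 at 8 h. In medium they were -0.02, -0.41, -0.48 and -0.78 at 2 h and -0.01, -1.50 and -1.03 at 8 h. Control ODN cultures had -0.43, -0.03, -0.16 and -0.70 at 2 h and -0.25, -0.87 and -0.92 at 8 h. All CpG ODN arrays at 8 h were below all control ODN arrays, and they overlapped the medium arrays.

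In CpG ODN cultures Cd68 fell by 1.32 ± 0.28 from 2 h to 8 h, or 2.49-fold (adjusted p = 0.0013), a call kept when any 1 array was left out. The same span gave -0.42 ± 0.28 in medium (adjusted p = 0.361) and -0.35 ± 0.28 with control ODN (adjusted p = 0.512). The fall with CpG ODN was not shown to differ from these: the differences were -0.89 ± 0.40 against medium (adjusted p = 0.203) and -0.97 ± 0.40 against control ODN (adjusted p = 0.232). At 8 h Cd68 with CpG ODN was -0.87 ± 0.30 against control ODN (adjusted p = 0.0675) and -0.70 ± 0.30 against medium (adjusted p = 0.143). Without CpG ODN repeat 1 the first of these was called, at -1.09 (adjusted p = 0.0354), and without CpG ODN repeat 3 it was -0.63 (adjusted p = 0.284). The difference from control ODN was also called in a fit with a block per repeat number.

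Spic encodes the transcription factor that red pulp macrophages require, and it is also made in B cells. In CpG ODN cultures it was 3.32, 3.24, 2.93 and 3.11 at 2 h, 2.29, 2.66, 3.29 and 2.72 at 4 h, and 2.47, 2.10 and 2.44 at 8 h. In medium it was 2.93, 3.33, 3.32 and 2.91 at 2 h and 2.13, 3.06 and 2.58 at 8 h, and with control ODN it was 3.33, 2.96, 3.34 and 2.60 at 2 h and 2.62, 2.44 and 2.49 at 8 h. The CpG ODN arrays of 2 h and 8 h did not overlap, and those of the other conditions did. With CpG ODN Spic fell by 0.81 ± 0.28 from 2 h to 8 h (adjusted p = 0.0461). This call was lost whichever of the 7 arrays was left out, with an adjusted p from 0.0504 to 0.16 and a difference from -0.88 to -0.69. The same span gave -0.53 ± 0.28 in medium (adjusted p = 0.225) and -0.54 ± 0.28 with control ODN (adjusted p = 0.253). Beside it, 1 of 11 B cell markers, Cd79b, was lower with CpG ODN over the same span, and the part of B cells in the Spic values was not tested.

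Hmox1, which encodes the inducible haem oxygenase, passed no test. At 8 h its values were 0.85, 0.84 and 0.87 in medium, 0.92, 1.05 and 1.20 with control ODN, and 0.60, 0.69 and 0.55 with CpG ODN. These 3 groups did not overlap, and their SDs of 0.02, 0.14 and 0.07 were below those of the groups at 2 h and 4 h, from 0.17 to 0.49. limma pools the spread over all groups and gave -0.45 ± 0.25 for CpG ODN against control ODN (adjusted p = 0.308) and -0.24 ± 0.25 against medium (adjusted p = 0.619). Its 4 h values were 1.23, 0.42, 0.58 and 0.68 in medium, 0.85, -0.29, 0.29 and 0.56 with control ODN, and 0.75, 0.66, 0.83 and 1.72 with CpG ODN. The uncalled difference of 0.64 between CpG ODN and control ODN at 4 h rested largely on CpG ODN repeat 4 and control ODN repeat 2.

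Adgre1 encodes an adhesion G protein-coupled receptor that is widely stained to find mouse red pulp macrophages. It lay between -0.26 and 0.94 at 2 h, between -0.41 and 0.41 at 4 h and between -0.77 and 0.98 at 8 h, and all groups at one time overlapped. CpG ODN differed from control ODN at 8 h by -0.09 ± 0.33 (adjusted p = 0.924) and from medium by 0.28 ± 0.33 (adjusted p = 0.666). The first of these turned positive without control ODN repeat 1 (0.28) or CpG ODN repeat 3 (0.26). Over time it was -0.46 ± 0.31 in medium (adjusted p = 0.358), -0.32 ± 0.31 with control ODN (adjusted p = 0.601) and -0.58 ± 0.31 with CpG ODN (adjusted p = 0.212).

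Other genes of iron and haem handling came from a list of 20, of which 13 had values. Against control ODN at 8 h, 0 of 13 were higher with CpG ODN and 2 were lower, with a list median of -0.09. Over all genes 10.0% were called and the median was -0.12. Hfe, the haemochromatosis gene that regulates iron uptake, was -0.66 ± 0.16 (adjusted p = 0.00695), and Blvrb, a biliverdin reductase that acts downstream of haem oxygenase, was -0.91 ± 0.28 (adjusted p = 0.0371). The same 2 genes were lower against medium, by -0.73 ± 0.16 (adjusted p = 0.00218) and -1.02 ± 0.28 (adjusted p = 0.0164). Both also fell during culture. Hfe fell by 1.77 ± 0.15 in medium (adjusted p = 5.16e-09), and Blvrb fell by 0.92 ± 0.27 (adjusted p = 0.0182). With CpG ODN over time 4 of 13 were lower and 0 higher, Slc11a1 and Hebp1 being the other two.

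Oxidative stress genes of the NRF2 type, the group to which Hmox1 belongs, came from a list of 18, 14 of them with values. With CpG ODN at 8 h, 2 of 14 were higher than with control ODN and 1 lower, beside 10.0% of all genes called. Sod2, the mitochondrial superoxide dismutase, was 0.72 ± 0.21 (adjusted p = 0.022), and Keap1, which holds NRF2 in check, was 0.90 ± 0.29 (adjusted p = 0.0448). Cat, which encodes catalase, was -1.28 ± 0.34 (adjusted p = 0.0131). Against medium Cat alone was called, at -1.37 ± 0.34 (adjusted p = 0.00626). At 4 h 1 of 14 was called against control ODN, beside 0.384% of all genes. This was Sod2, higher by 0.98 ± 0.18 (adjusted p = 0.00365). In medium over time 1 of 14 was lower, the autophagy receptor gene Sqstm1 with -1.04 ± 0.28 (adjusted p = 0.0112), and 0 were higher.

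General monocyte and macrophage genes came from a list of 29, 20 of them with values. In medium over time 0 of 19 tested rose and 4 fell, namely Aif1, Axl, Spi1 and Plaur. Aif1, an actin-binding protein of macrophages, fell by 1.39 ± 0.18 (adjusted p = 9.75e-06) and Axl, a receptor for the uptake of dead cells, by 1.84 ± 0.26 (adjusted p = 2.34e-05). With control ODN over time 3 of 19 fell and 0 rose, and with CpG ODN 8 fell and 1 rose. The mean over the 10 of these genes measured on every array was 1.54 ± 0.20 (SD, n = 4) at 2 h and 0.89 ± 0.36 (SD, n = 3) at 8 h in medium. With control ODN it was 1.49 ± 0.14 and 1.17 ± 0.09, and with CpG ODN 1.38 ± 0.08 and 0.87 ± 0.08.

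Against control ODN at 8 h, 1 of 18 of these genes was higher and 2 were lower with CpG ODN, beside 10.0% of all genes called. Cybb, the catalytic subunit of the phagocyte oxidase, was 1.59 ± 0.45 (adjusted p = 0.0201). Lpl, lipoprotein lipase, was -1.90 ± 0.35 (adjusted p = 0.000413), and Sirpa, the inhibitory receptor for CD47, was -1.29 ± 0.23 (adjusted p = 0.000188). The same 3 genes were called in the same directions against medium. The list's median was -0.21 against control ODN and -0.17 against medium.

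Some markers of other blood cells were called too, beside 10.0% of all genes against control ODN and 11.8% against medium at 8 h. Against control ODN at 8 h, 4 of 9 T cell markers were lower with CpG ODN (Lat, Cd5, Cd3e and Cd3g), 2 of 11 B cell markers were lower (Cd79b and Cr2) and 1 of 9 erythroid markers was lower (Epb42). Of 9 neutrophil markers 0 were called, with a median of -0.59, and of 7 NK cell markers 0 were called, with a median of 0.17. The dendritic cell marker Irf8 was higher, 1 of 6 tested. Against medium at 8 h, 1 of 9 T cell markers was lower (Cd3g), as were the same 2 B cell markers and Epb42, while Irf8 was higher. There 1 of 9 neutrophil markers was lower, S100a8 with -1.56 ± 0.34 (adjusted p = 0.00225), and 0 of 7 NK cell markers were called. From 2 h to 8 h, 1 of 9 neutrophil markers was lower with CpG ODN and 1 of 9 with control ODN, S100a8 in both. Over the same span 0 of 7 NK cell markers were higher in any condition and 1 was lower in each. It was Il2rb in medium (-1.45 ± 0.42, adjusted p = 0.0187) and with control ODN (-1.29 ± 0.42, adjusted p = 0.0456). With CpG ODN it was Klrb1c (-1.04 ± 0.33, adjusted p = 0.0305). S100a8, the only listed neutrophil marker measured on every array, averaged 5.18 ± 0.29 (SD, n = 4) in medium at 2 h and 4.28 ± 0.40 (SD, n = 3) at 8 h, and 4.97 ± 0.40 and 2.72 ± 0.57 with CpG ODN. Neutrophils and NK cells also carry Fcgr3, and their part in its values was not tested.

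The arrays of repeat 1 at 8 h stood apart for several members. Repeat 1 had the highest value of its group for Fcgr1 and Adgre1 in all 3 conditions, and the lowest for Fcgr3 and Cd163 in medium. In medium Fcgr3 was 2.32 in repeat 1 against 3.85 and 4.29, and Adgre1 was 0.68 against -0.33 and -0.77. Without the 3 arrays of that repeat, a choice made after seeing the data, Fcgr1 with CpG ODN was 0.81 above control ODN (adjusted p = 0.0735). Fcgr3 with CpG ODN was then -1.78 against medium (adjusted p = 0.00185). In each of the 3 repeats Cd163 with CpG ODN was below Cd163 in both controls.

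**Figure D4:**
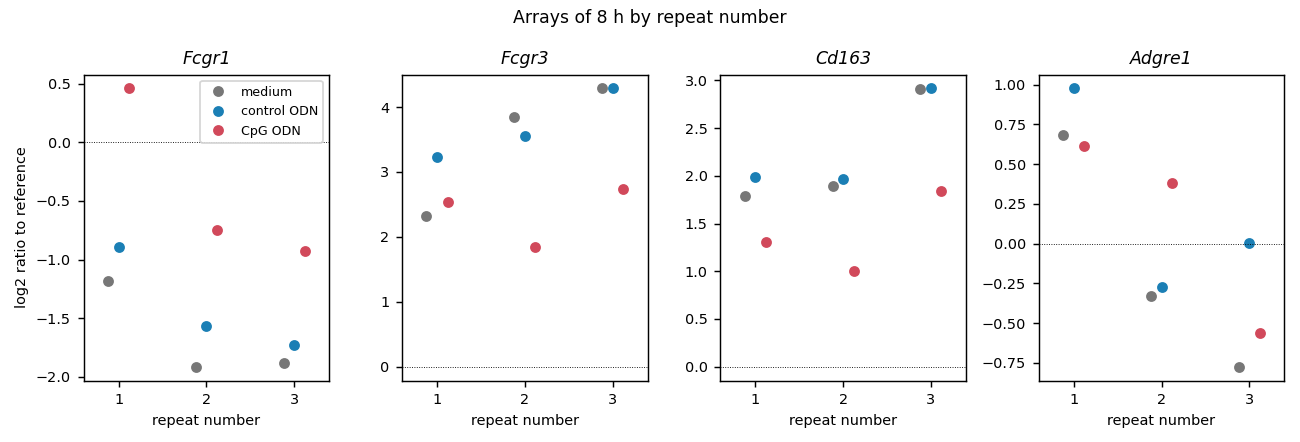
Log2 ratio to the reference at 8 h for Fcgr1, Fcgr3, Cd163 and Adgre1 (vertical axes, each gene on its own scale) by repeat number, with 1 point per array for medium (grey), control ODN (blue) and CpG ODN (red). Fcgr1 with CpG ODN is highest within each repeat, and repeat 1 gives the highest Fcgr1 and Adgre1 value of each condition.

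Across arrays, the members did not follow 1 pattern. As a description over all 33 arrays, Fcgr3 and Cd163 had a Pearson r of 0.87, and 0.73 after group means were removed. Vcam1 correlated with Cd68 at 0.65, or 0.47 within groups, and with Fcgr3 at -0.48, or -0.09 within groups. Cd68 and Fcgr1 had an r of 0.13 over arrays and 0.74 within groups. The arrays share groups, times and the reference, so these values describe their spread and test nothing.

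The genes whose values followed each member most closely over the arrays were found among 8206 genes measured on at least 28 arrays, or 7446 for Marco. Vcam1 was closest to Hfe (r = 0.96) and Cadm1 (0.95), and Fcgr3 to Speer6-ps1 (0.91) and Ninj2 (0.90). Cd163 was closest to 1700025I17Rik (0.90) and Chrm1 (0.90), and Cd68 to Reep5 (0.87) and Man2b2 (0.84). For Spic the closest were Cd86 (0.80) and Gdap2 (0.79), and for Adgre1 they were Cptp (0.78) and Ppl (0.74). Fcgr1 was closest to Eif2ak2 (0.74) and Slfn4 (0.71), both known as interferon-induced genes, and Marco to Cfc1 (0.70) and H2-Oa (0.70). Hmox1 had its closest match in another member, Spic (0.64), followed by Kctd10 (0.64). Each of these r values is over 30 to 33 arrays.

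Over the whole series, between 7908 and 11129 probes had a value on an array. Before centring, array medians ranged from -0.085 to 0.024, and any 2 arrays correlated with an r of 0.664 to 0.961. Nothing in the labels shows which animals a repeat came from, so the p-values measure the spread between arrays, part of which may be technical.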

How the data were processed

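The 9 genes, the gene lists and the tests were chosen with earlier results of these data known. The deposited table holds 1 log ratio per probe and array, of Cy5 (spleen cells) over Cy3 (reference) per the labels' protocols, and no dye was swapped. The base is not stated and was taken as log2 from the range of the deposited values, -6.51 to 8.54. How spots were scanned, background-corrected, filtered and normalized is not given in the sources used here. Depth is unknown beyond the number of probes with a value.

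Of 16720 probes, 14656 had 1 symbol in the platform annotation, 6 had several and 2058 had none. A gene with several probes was read from the probe with the fewest missing values. Array medians were set to 0. A mean per group was fitted over all 9 groups with limma 3.58.1 in R 4.3.3, with Benjamini-Hochberg adjustment over all genes tested, for genes with at least 2 measured arrays in each compared group. The fit was checked against lmFit and tested on simulated data. Variances were moderated with 5.75 prior degrees of freedom. Genes named beside the 9 were, per pathway list, up to 3 called for CpG ODN against control ODN at 8 h and up to 2 called for medium from 2 h to 8 h, by smallest p. Other genes named, cell type markers included, were chosen after their values were seen. Alternatives were a replicate block, no centring, quantile normalization, array weights, the compared groups alone, no early arrays (experiment numbers below 75000 in the labels), genes on all arrays, the mean of probes, all measured probes and leaving out each array. Promoter windows came from RefSeq.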

Additional observations from a re-analysis of the deposited data

Results flagged for a closer look

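Among 54 groups of 4 arrays of the 9 genes, 5 had 1 array far from the rest by Dixon's criterion at 95%, which chance alone meets in about 1 in 20 groups. Adgre1 was 0.42 in CpG ODN repeat 2 at 4 h, where the other arrays lay between -0.11 and -0.04. Marco was 0.73 in control ODN repeat 3 at 4 h, against 1.19 to 1.25. Spic was 3.30 in medium repeat 1 at 4 h, against 2.08 to 2.28. Hmox1 was 1.72 in CpG ODN repeat 4 at 4 h, against 0.66 to 0.83. Vcam1 was 1.58 in medium repeat 2 at 2 h, against 0.89 to 0.97.

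The fall of Vcam1 from 2 h to 8 h differed between treatments in the test of the difference itself, by -1.07 ± 0.32 between CpG ODN and medium (limma adjusted p = 0.0433) and by -1.14 ± 0.32 between CpG ODN and control ODN (adjusted p = 0.0425).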

How the results depend on the processing

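Counts of called members were recomputed under 10 alternatives over 16 comparisons, and 19 of 153 counts moved by more than 1.5 times. For CpG ODN against control ODN at 8 h the count was 3, and it was 5 with the replicate block, 1 with quantile normalization and 1 to 3 when 1 array was left out. Against medium at 8 h it was 2, and 5 with the block, 1 with quantile normalization, 0 with the compared groups alone and 1 to 2 without 1 array. In medium, from 2 h to 4 h the count of 1 became 3 with array weights and 0 with the compared groups alone. From 4 h to 8 h the count of 1 became 0 with the compared groups alone, 2 without repeat 1 at 8 h and 0 to 1 without 1 array. From 2 h to 8 h the count of 2 became 1 with quantile normalization, 5 with array weights, 1 with the compared groups alone, 5 without repeat 1 at 8 h and 1 to 4 without 1 array. With control ODN from 2 h to 8 h it was 3, and 1 to 3 without 1 array. Of the differences between changes over time, that of CpG ODN and medium (1 member) became 0 without centring, 2 with array weights, 0 with the compared groups alone and 0 to 1 without 1 array. That of CpG ODN and control ODN (1 member) became 0 with quantile normalization, 0 with the compared groups alone, 0 without repeat 1 at 8 h and 0 to 1 without 1 array. The fit on the compared groups alone has fewer arrays, and the cause of the other shifts was not tested. Signs turned for uncalled differences of CpG ODN against control ODN at 8 h: Adgre1, -0.09, was 0.073 with array weights, 0.045 without repeat 1 at 8 h and -0.35 to 0.28 without 1 array, and Spic, -0.18, was 0.059 with quantile normalization. Of 444 alternative values for 26 gene results, 355 kept direction and call, 66 lost the call, 18 gained it and 5 turned. Quantile normalization ended the calls of Fcgr1 against control ODN at 8 h (0.98, adjusted p = 0.0667), Vcam1 against control ODN (-0.75, adjusted p = 0.0526) and medium (-0.68, adjusted p = 0.0747) at 8 h, Fcgr3 in medium over time (0.82, adjusted p = 0.0802) and Cd163 with control ODN over time (0.84, adjusted p = 0.0988), and that of the Vcam1 change over time between CpG ODN and control ODN (-1.05, adjusted p = 0.069). Of all genes, 949 were called for CpG ODN against control ODN at 8 h, 1489 with the replicate block, 626 with quantile normalization, 564 with the compared groups alone and 557 to 887 without 1 array. Against medium the 1115 became 1698, 784, 315 and 690 to 1415. In medium from 2 h to 8 h the 1379 became 385 with the compared groups alone, 2127 with array weights and 779 to 1601 without 1 array. In medium from 4 h to 8 h the 70 became 501 with array weights, 593 without repeat 1 at 8 h and 2 to 563 without 1 array. Arrays with the same repeat number deviated together (r over 0.1) in 7 of 12 pairs at 2 h, 8 of 12 at 4 h and 6 of 9 at 8 h. The median r of same-number pairs was 0.22, 0.40 and 0.48 at these times, against -0.09, -0.16 and -0.18 for pairs of different numbers. The labels do not say that a number marks a shared experiment. The main fit does not use this likeness, and the block fit does. With the block Cd68 and Cd163 were also called against control ODN at 8 h (adjusted p = 0.00441 and 0.0167). Against medium the added calls included those of Cd163 and Fcgr3 (adjusted p = 0.0286 and 0.011) but were not limited to them. The 3 or 4 arrays per group limit the precision.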
